A study of Mus musculus with 12 samples.

Results

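The transcription factors that carry adipogenesis, the formation and upkeep of fat cells, were followed in white adipose tissue of Ahnak knockout mice. Ahnak codes for a giant scaffold protein. The members are 9 of the 19937 genes tested: Pparg, Rxra, Cebpa, Cebpb, Cebpd, Klf15, Ebf1, Stat5a and Zfp423. They were chosen by name as known adipogenic factors, with earlier results of these data known. Counts of calls among them, set beside those of all genes, are therefore descriptions. Each was read by the array row annotated with its symbol alone. The 12 arrays fall into 4 groups of 3: Ahnak knockout (KO) on a high fat diet (HFD), wild type (WT) on HFD, KO on regular chow and WT on chow. All mice were male and 18 weeks old and had been kept in weight-matched groups on their diet for 12 weeks; the HFD held 60% fat, 20% carbohydrate and 20% protein. Not given in the sources used here: how and in which cells Ahnak was deleted, and which fat depot was taken. Replicates carry numbers in the labels without a statement that each is its own animal, so the p-values cover the spread among these samples alone, and that spread may be technical. Values are log2 intensities of the array, and a level can be compared between arrays for 1 gene but not between genes. Percentiles of level among all genes, and levels of different genes set side by side, are therefore only a rough guide.

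Between arrays of 1 group, r over genes, which are not independent replicates, was 0.985 to 0.996. Ahnak itself read 9.58, 9.40 and 9.45 on the KO arrays on HFD, against 10.27, 9.68 and 10.04 on the WT arrays on HFD. On chow it read 9.31, 9.27 and 9.42 on KO arrays, against 9.94, 10.06 and 10.08 on WT arrays. Every KO array thus lay below every WT array of its diet, by 0.52 ± 0.13 on HFD (adjusted p = 0.021), while the chow difference of -0.69 ± 0.13 did not pass (adjusted p = 0.38). The place of its probes relative to the deletion is unknown here. The adipocyte markers Adipoq, Fabp4, Plin1, Cidec, Lipe and Slc2a4 had mean levels at the 93.8th percentile of all genes or higher. The 8 epididymis markers averaged 4.03 to 4.23 on the chow arrays and 3.90 to 3.98 on the HFD arrays. Of these, Adam7 read 4.04 to 5.40 on chow and 3.74 to 3.93 on HFD. None of the 8 passed between HFD and chow in WT or in KO. Ucp1, 1 of 8 brown adipocyte markers, read 4.40 to 4.61 except for 5.86 on WT HFD replicate 2. The mean levels of these 8 ran from the 15.7th percentile of all genes (Zic1) to the 66.7th (Cox7a1). Between HFD and chow 2 of the 8 were lower on HFD in WT and 2 in KO.

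As background, adipogenesis runs as a cascade of transcription factors. In cultured preadipocytes Cebpb and Cebpd are induced early and switch on Pparg and Cebpa, which then hold each other and the genes of the mature fat cell at a high level. PPARγ binds DNA as a partner of the retinoid X receptors, of which Rxra encodes one. Klf15, Ebf1 and Stat5a promote the cascade, and Zfp423 marks committed preadipocytes and restrains the thermogenic program of white fat cells.

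On HFD 4 of the 9 factors were higher in KO than in WT adipose tissue: Cebpa, Ebf1, Klf15 and Rxra. No factor was lower, and 5 did not pass. Of all genes tested, 6.65% were called higher and 6.85% lower in this comparison, 13.5% in all. At an unadjusted p under 0.05 there were 5 of the 9 factors and 26.8% of all genes. The median change of the 9 factors was 0.38, beside 0.02 over all genes. For 6 of the 9, every KO array lay above every WT array; over all genes the groups did not overlap for 30.9%, with KO the higher group for 17.4%. In bulk tissue, fewer cells of a type and less RNA per cell cannot be told apart, and this holds for every value below.

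**Figure D1:**
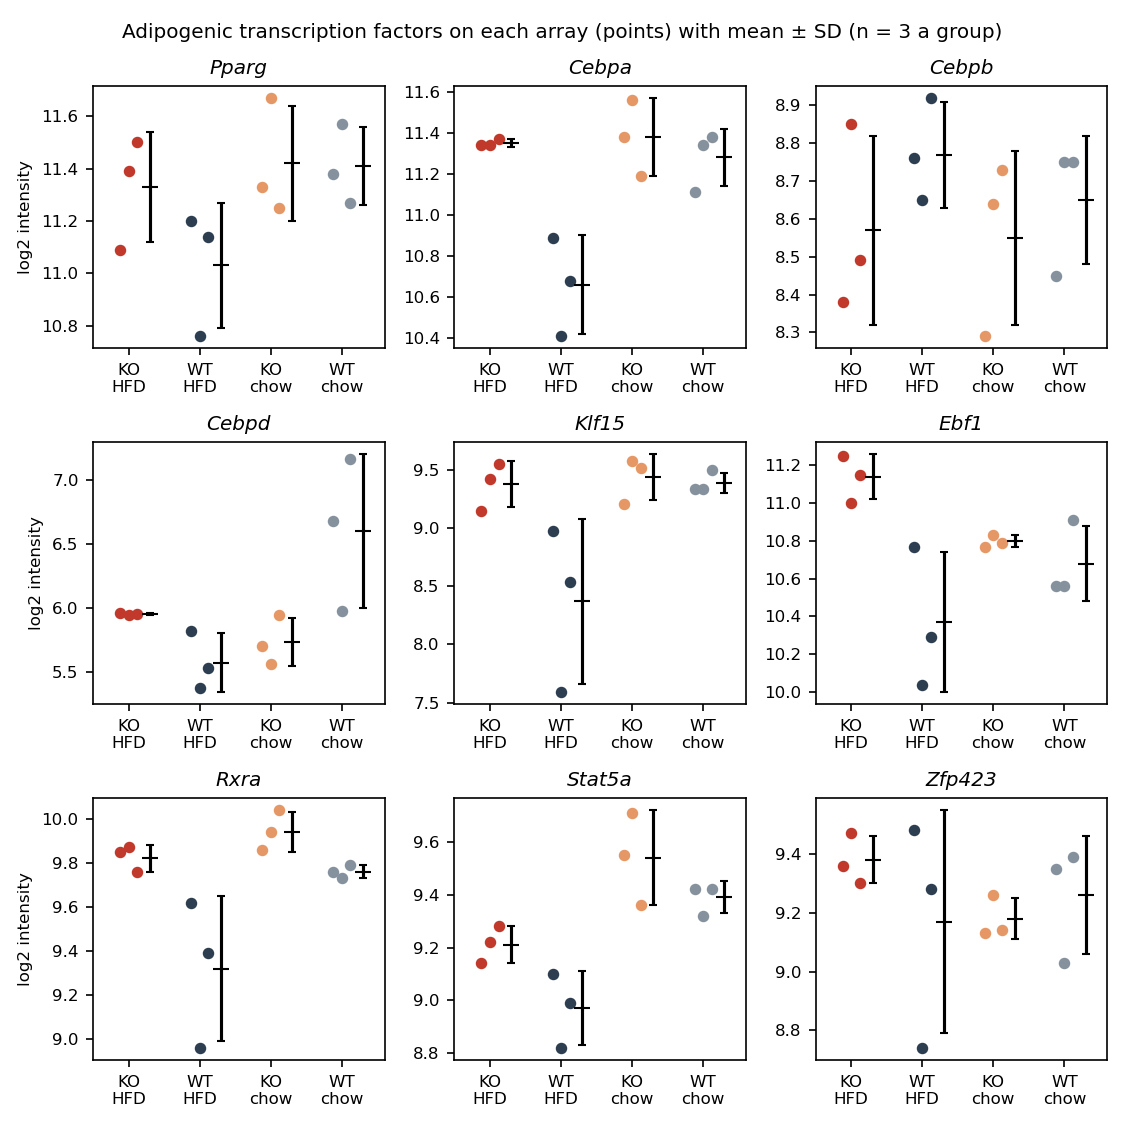
Log2 intensity of each of the 9 factors on every array (points, 3 a group) with the group mean ± SD beside them; each panel has its own axis, which does not start at 0. For Cebpa, Klf15, Rxra and Stat5a the WT arrays on HFD lie below all 9 other arrays, while Pparg, Cebpb and Zfp423 overlap between all neighbouring groups.

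Among the C/EBP factors, Cebpa, which keeps the mature fat cell differentiated and insulin sensitive, had the clearest change. It read 11.34, 11.34 and 11.37 on KO arrays, against 10.89, 10.41 and 10.68 on WT arrays on HFD. The KO arrays lay close together, and all were above the highest WT array. The rise was 0.69 ± 0.13, or 1.61-fold with a 95% interval of 1.33 to 1.96 (adjusted p = 0.0082). Its p ranked 493 among the 19937 genes. The call held without any single array (0.57 to 0.81, adjusted p = 0.0011 to 0.038) and was lost in a fit of the 6 HFD arrays alone (adjusted p = 0.058).

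The early factors of the same family did not pass on HFD. Cebpb, which starts the cascade and is also induced by inflammatory signals, read 8.38, 8.85 and 8.49 on KO arrays, against 8.76, 8.65 and 8.92 on WT arrays. The groups overlapped, and the difference was -0.20 ± 0.15 (adjusted p = 0.45). Cebpd, the other early factor, read 5.96, 5.94 and 5.95 on KO arrays, against 5.82, 5.37 and 5.53 on WT arrays. The groups did not overlap, and the difference of 0.38 ± 0.24 did not pass (adjusted p = 0.36). Its row had a mean level at the 40.5th percentile of all genes, the lowest of the 9, where the others lay between the 76.1st and the 97.7th.

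Of the receptor pair, Rxra rose and Pparg did not pass. Rxra, the common partner of PPARγ and other nuclear receptors, read 9.85, 9.87 and 9.76 on KO arrays, against 9.62, 8.96 and 9.39 on WT arrays on HFD. All KO arrays were above all WT arrays, and the rise was 0.50 ± 0.13 (1.42-fold, 95% interval 1.16 to 1.73; adjusted p = 0.029). Pparg, the master regulator of fat cell formation and the target of the glitazone drugs, read 11.09, 11.39 and 11.50 on KO arrays, against 11.20, 10.76 and 11.14 on WT arrays. KO replicate 1 lay below WT replicates 1 and 3, and the difference was 0.29 ± 0.15 (adjusted p = 0.27), with a 95% interval of -0.05 to 0.63. Rxra no longer passed when WT HFD replicate 2 (0.32, adjusted p = 0.056) or 3 (0.54, 0.070), or KO HFD replicate 1 (0.49, 0.093), 2 (0.48, 0.078) or 3 (0.54, 0.064), was left out. Nor did it pass in a fit of the 6 HFD arrays alone (adjusted p = 0.12) or with all rows of the table (0.053).

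Klf15, a zinc finger factor of the Krüppel-like family that controls glucose, amino acid and lipid metabolism, had the largest fitted rise of the 9. It read 9.15, 9.42 and 9.55 on KO arrays, against 8.98, 7.59 and 8.54 on WT arrays on HFD. The groups did not overlap, though WT replicate 1 came near the lowest KO array and WT replicate 2 lay far below. The rise was 1.01 ± 0.27 (2.01-fold, 95% interval 1.33 to 3.04; adjusted p = 0.032), and 0.62 without WT HFD replicate 2 (adjusted p = 0.048). Klf15 no longer passed when WT HFD replicate 3 (1.10, adjusted p = 0.070) or KO HFD replicate 1 (1.12, 0.066), 2 (0.99, 0.081) or 3 (0.92, 0.11) was left out, in a fit of the 6 HFD arrays (0.13) or with all rows (0.057).

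Ebf1, an early B cell factor that also promotes fat cell differentiation, read 11.25, 11.00 and 11.15 on KO arrays, against 10.77, 10.04 and 10.29 on WT arrays on HFD. All KO arrays were above all WT arrays. The rise was 0.77 ± 0.16 (1.70-fold, 95% interval 1.33 to 2.18; adjusted p = 0.012). Ebf1 was the only one of the 9 for which KO on HFD also lay above all 6 chow arrays, which read 10.56 to 10.91. Leaving out WT HFD replicate 3 (0.73, adjusted p = 0.053) or KO HFD replicate 1 (0.71, 0.056), or fitting the 6 HFD arrays alone (0.073), ended the call.

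The remaining factors did not pass on HFD. Stat5a, which carries growth hormone and prolactin signals to fat cell genes, read 9.14, 9.22 and 9.28 on KO arrays, against 9.10, 8.82 and 8.99 on WT arrays. The groups just failed to overlap, and the difference was 0.24 ± 0.10 (adjusted p = 0.14). With array weights Stat5a was just called (0.24 ± 0.08). Zfp423 read 9.36, 9.47 and 9.30 on KO arrays, against 9.48, 8.74 and 9.28 on WT arrays. Its groups overlapped, and the difference of 0.21 ± 0.16 did not pass (adjusted p = 0.47). Without WT HFD replicate 2 it was 0.00 for Zfp423, 0.15 for Pparg and 0.17 for Stat5a, and without WT HFD replicate 1 it was 0.37, 0.38 and 0.31 in that order, with no call.

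**Figure D2:**
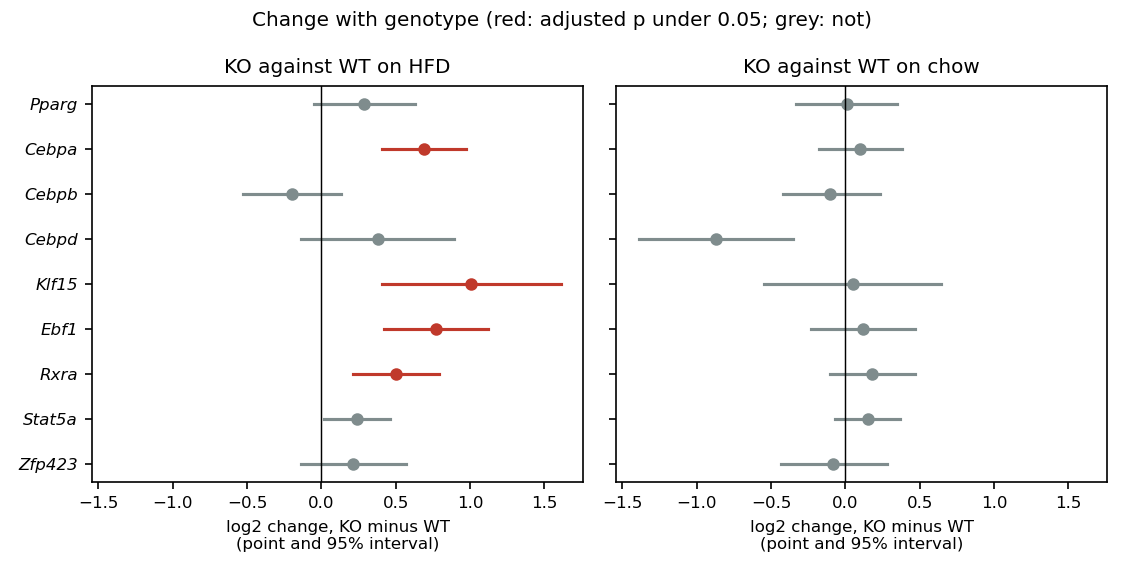
Log2 change of each factor, KO minus WT, on HFD (left) and on chow (right), as the fitted difference with its 95% interval; red marks an adjusted p under 0.05 over all genes. Cebpa, Klf15, Ebf1 and Rxra passed on HFD, and on chow all intervals but that of Cebpd hold 0.

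The promoters of the 4 factors that rose on HFD are shown because these genes moved together. Each sequence is a RefSeq promoter window (GRCm38.p6), on the + strand, of 250 bases before to 50 bases after the start that the table uses, the most upstream one where a gene has several windows. For Klf15 and Rxra the gene's annotated span begins further upstream than this window, so the start used is not the gene's first base. Capitals mark matches, on either strand, to any of 7 motifs: the C/EBP site TTGCNNAA, the nuclear receptor element AGGTCA, the E-box CACGTG, the GC box GGGCGG, the CCAAT box, the TATA box TATAAA and the STAT site TTCNNNGAA. The windows lie at chr7:35119043-35119342 (Cebpa), chr6:90462326-90462625 (Klf15), chr11:44617850-44618149 (Ebf1) and chr2:27676951-27677250 (Rxra).
Cebpa: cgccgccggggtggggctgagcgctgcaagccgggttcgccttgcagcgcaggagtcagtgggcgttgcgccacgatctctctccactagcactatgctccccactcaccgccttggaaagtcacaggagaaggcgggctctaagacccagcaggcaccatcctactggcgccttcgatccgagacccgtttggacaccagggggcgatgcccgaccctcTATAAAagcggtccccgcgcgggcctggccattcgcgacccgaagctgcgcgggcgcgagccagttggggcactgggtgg
Klf15: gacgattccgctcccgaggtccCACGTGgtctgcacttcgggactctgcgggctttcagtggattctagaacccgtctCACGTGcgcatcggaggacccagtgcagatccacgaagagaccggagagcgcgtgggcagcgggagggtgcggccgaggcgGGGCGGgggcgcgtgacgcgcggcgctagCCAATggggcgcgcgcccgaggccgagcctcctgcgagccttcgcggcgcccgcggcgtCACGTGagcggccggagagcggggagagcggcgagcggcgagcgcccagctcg
Ebf1: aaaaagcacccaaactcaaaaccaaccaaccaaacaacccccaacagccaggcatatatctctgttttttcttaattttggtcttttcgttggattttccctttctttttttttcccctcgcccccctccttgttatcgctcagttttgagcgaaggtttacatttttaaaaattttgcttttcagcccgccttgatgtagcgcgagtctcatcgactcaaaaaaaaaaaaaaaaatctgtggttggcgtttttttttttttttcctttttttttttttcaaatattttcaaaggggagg
Rxra: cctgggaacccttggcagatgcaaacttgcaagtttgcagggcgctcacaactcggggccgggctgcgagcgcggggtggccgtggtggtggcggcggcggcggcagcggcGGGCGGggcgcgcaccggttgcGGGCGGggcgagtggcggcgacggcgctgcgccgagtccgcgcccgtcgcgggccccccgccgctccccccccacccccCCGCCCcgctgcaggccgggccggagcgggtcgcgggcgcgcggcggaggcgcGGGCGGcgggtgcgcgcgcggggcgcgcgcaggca

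No motif was in all 4 windows; Klf15 and Rxra both held the GC box. Klf15 held 3 E-boxes, which begin 228, 172 and 3 bases before the start used for its window, as well as a GC box and a CCAAT box. Of all 32851 promoter windows of this length, 7.15% held an E-box and 0.0883% held 3 or more. Rxra held 4 GC boxes, a motif that 35.7% of all windows held and 10.7% held 3 or more times. Cebpa held a TATA box beginning 30 bases before the start used, a motif of 13.6% of windows, and the Ebf1 window held no match. Over the 14 windows of 8 members, the C/EBP site was in 2 (10.8% of all windows), in the most downstream Pparg window and a Zfp423 window, the element AGGTCA in 6 (16.3%), the GC box in 8 (35.7%), the CCAAT box in 3 (37.4%), the TATA box in 3 (13.6%), the E-box in 1 (7.15%) and the STAT site in 0 (8.30%). In the Cebpb window a pair of its GC boxes overlap. A match describes letters and is not evidence of binding, and where no match was found only these letters are missing from the window.

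On chow none of the 9 factors passed, and limma called 0% of all genes (0 of 19937, with 5.60% at an unadjusted p under 0.05). One of the 9, Cebpd, had an unadjusted p under 0.05. It read 5.70, 5.56 and 5.94 on KO arrays, against 6.68, 5.97 and 7.16 on WT arrays on chow. Every KO array lay below every WT array, the nearest pair almost touching, and the WT arrays were spread over more than 1 log2 unit. The difference was -0.87 ± 0.24 (adjusted p = 0.68), and -0.59 without WT chow replicate 3 and -1.19 without WT chow replicate 2, with no call in any setting. Rxra also did not overlap (9.86, 9.94 and 10.04 on KO arrays, against 9.76, 9.73 and 9.79 on WT arrays), with a difference of 0.18 ± 0.13 (adjusted p = 0.96). Such separation of the arrays was seen for 11.5% of all genes, 5.79% with KO higher and 5.74% with KO lower. For the other 7 the groups overlapped and the differences ran from -0.10 for Cebpb to 0.15 for Stat5a. The 95% intervals on chow were -0.18 to 0.38 for Cebpa, -0.33 to 0.35 for Pparg, -0.23 to 0.47 for Ebf1 and -0.55 to 0.64 for Klf15.

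In WT mice 5 of the 9 factors were lower on HFD than on chow, and none was higher, where 24.1% of all genes were called, 11.8% higher and 12.3% lower. Cebpd fell by 1.03 ± 0.24 (adjusted p = 0.0097), Klf15 by 1.02 ± 0.27 (0.019), Cebpa by 0.62 ± 0.13 (0.0060), Rxra by 0.44 ± 0.13 (0.033) and Stat5a by 0.42 ± 0.10 (0.011). For these 5 and for Pparg (-0.37 ± 0.15, adjusted p = 0.11) every HFD array of WT lay below every chow array of WT, as for 21.6% of all genes. At an unadjusted p under 0.05 there were 6 of the 9 and 35.2% of all genes. Ebf1 had -0.31 ± 0.16 (adjusted p = 0.20), Zfp423 -0.09 ± 0.16 (0.75) and Cebpb 0.12 ± 0.15 (0.61). The WT HFD arrays were shared with the comparison of KO and WT on HFD, so the 2 comparisons are not independent. The Rxra call was lost without any of WT chow replicates 1 to 3 (adjusted p = 0.079, 0.067 and 0.088) or WT HFD replicates 2 or 3 (0.068 and 0.064), and its fall was 0.26 without WT HFD replicate 2. The Klf15 call was lost without WT chow replicate 3 (-0.97, adjusted p = 0.061), and its fall was 0.63 without WT HFD replicate 2. With all rows of the table Rxra was not called either (adjusted p = 0.055). Ebf1 was called without WT HFD replicate 1 (-0.51, adjusted p = 0.011). In a fit of the 6 WT arrays alone, Cebpa and Stat5a were called and Cebpd (0.055), Klf15 (0.076) and Rxra (0.11) were not. In the same comparison 17 of 20 macrophage markers rose (median 1.23), 7 of 12 stromal progenitor markers rose (median 0.59) and 3 of 6 adipocyte markers fell (median -0.34), and the part of these shifts was not tested. Subtracting each array's mean over the 6 adipocyte markers moved the median of all genes in this comparison to 0.41. It also raised the number of genes called from 4802 to 9414. Klf15 (-0.59, adjusted p = 0.022) and Cebpd (-0.59, 0.038) were then lower. Cebpb was higher (0.56, 0.029), though its change lay near the shifted median. Cebpa (-0.18, 0.26), Rxra (0.00, 1) and Stat5a (0.02, 0.90) then did not pass.

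In KO mice none of the 9 passed between HFD and chow, where 6.34% of all genes were called, 2.80% higher and 3.54% lower. One of the 9 had an unadjusted p under 0.05, as did 22.8% of all genes. The groups did not overlap for 4 of the 9, 3 higher and 1 lower, and for 28.8% of all genes, 15.1% higher. Stat5a had the difference nearest to a call: it read 9.14, 9.22 and 9.28 on HFD, against 9.55, 9.71 and 9.36 on chow. All HFD arrays were below all chow arrays, with a difference of -0.33 ± 0.10 (adjusted p = 0.076). Ebf1 lay higher on every HFD array (0.34 ± 0.16, adjusted p = 0.24), as did Cebpd (0.22 ± 0.24, 0.64) and Zfp423 (0.20 ± 0.16, 0.51). Cebpa had -0.03 ± 0.13, Klf15 -0.06 ± 0.27, Rxra -0.12 ± 0.13 and Pparg -0.09 ± 0.15, each with overlapping groups.

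The interaction asks whether the genotype difference on HFD differs from that on chow. None of the 9 passed, where 0.00502% of all genes did (1 gene by limma, with 17.5% at an unadjusted p under 0.05). The fitted interaction was 1.25 ± 0.33 for Cebpd (adjusted p = 0.12), 0.96 ± 0.38 for Klf15 (0.23), 0.65 ± 0.23 for Ebf1 (0.18) and 0.59 ± 0.18 for Cebpa (0.14), and these 4 had an unadjusted p under 0.05. It was 0.32 ± 0.19 for Rxra (0.42). The calls on HFD are therefore not shown to differ from chow. Without WT HFD replicate 1, Cebpa (0.71, adjusted p = 0.023), Cebpd (1.37, 0.031), Klf15 (1.27, 0.028) and Ebf1 (0.85, 0.0090) passed. Without WT chow replicate 2, Cebpd alone passed (1.56, 0.043).

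Set in order, the group means placed WT on HFD lowest for 8 of the 9 factors, all but Cebpb. For Cebpa, Klf15 and Rxra the 3 upper groups overlapped each with its neighbour and only WT on HFD stood apart. For Stat5a both HFD groups stood below both chow groups, KO on HFD above WT on HFD. For Cebpd WT on chow stood highest (mean 6.60 ± 0.60, SD, n = 3), followed by KO on HFD (5.95 ± 0.01), KO on chow (5.73 ± 0.19) and WT on HFD (5.57 ± 0.23), the last 2 overlapping. For Pparg, Cebpb and Zfp423 all neighbouring groups overlapped.

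The 3 WT arrays on HFD differed among themselves more than the other groups for 6 of the 9 factors. Over all genes WT on HFD had the largest SD for 31.9%. On these arrays replicate 1 was the highest and replicate 2 the lowest for 8 of the 9 factors, all but Cebpb, and for 26.3% of all genes. Of the 6 adipocyte markers 5 had this order, as did 6 of 10 smooth muscle and pericyte markers, 6 of 12 endothelial markers and 5 of 10 T cell markers. Of 20 macrophage, 12 stromal progenitor and 10 mesothelial markers 0 did. All 12 endothelial markers were lowest on replicate 2, so the order is not particular to fat cell genes. The mean of the adipocyte markers was 12.62, 12.58 and 12.64 on the KO arrays, against 12.46, 11.79 and 12.21 on the WT arrays on HFD. The mean of the macrophage markers was 9.37, 9.31 and 9.45 on the KO arrays, against 10.19, 11.36 and 10.90 on the WT arrays, so the array with the least adipocyte signal held the most macrophage signal.

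Of the 20 macrophage markers 16 fell in KO against WT on HFD and 4 (Cd163, Cd14, Mertk and Trem2) did not pass. Their summed linear intensity was 19601 to 20464 in KO on HFD and 33237 to 73366 in WT on HFD. On chow it was 15828 to 19114 in KO and 18588 to 23002 in WT. The deposited log2 values start at 2.09, so no marker could read 0. Without detection calls the presence of a single marker on an array is unknown. Mmp12, a macrophage elastase, fell by 4.28 ± 0.47 (adjusted p = 0.0032), and Itgax, which encodes CD11c, fell by 3.70 ± 0.46 (0.0038). Stromal progenitor markers summed to 23791 to 25590 in KO and 26512 to 34590 in WT on HFD, with 4 of 12 lower and 8 not passing. Their median change was -0.02, and a linear sum weighs the brightest genes most. Pdgfra, for example, averaged 10.23 in KO and 10.24 in WT, while Col1a1 averaged 10.88 and 11.74. Of the adipocyte markers 3 of 6 rose (median 0.46), and of 12 endothelial markers 1 rose (median 0.36). The part of these shifts in the rises of Cebpa, Ebf1, Klf15 and Rxra was not tested.

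**Figure D3:**
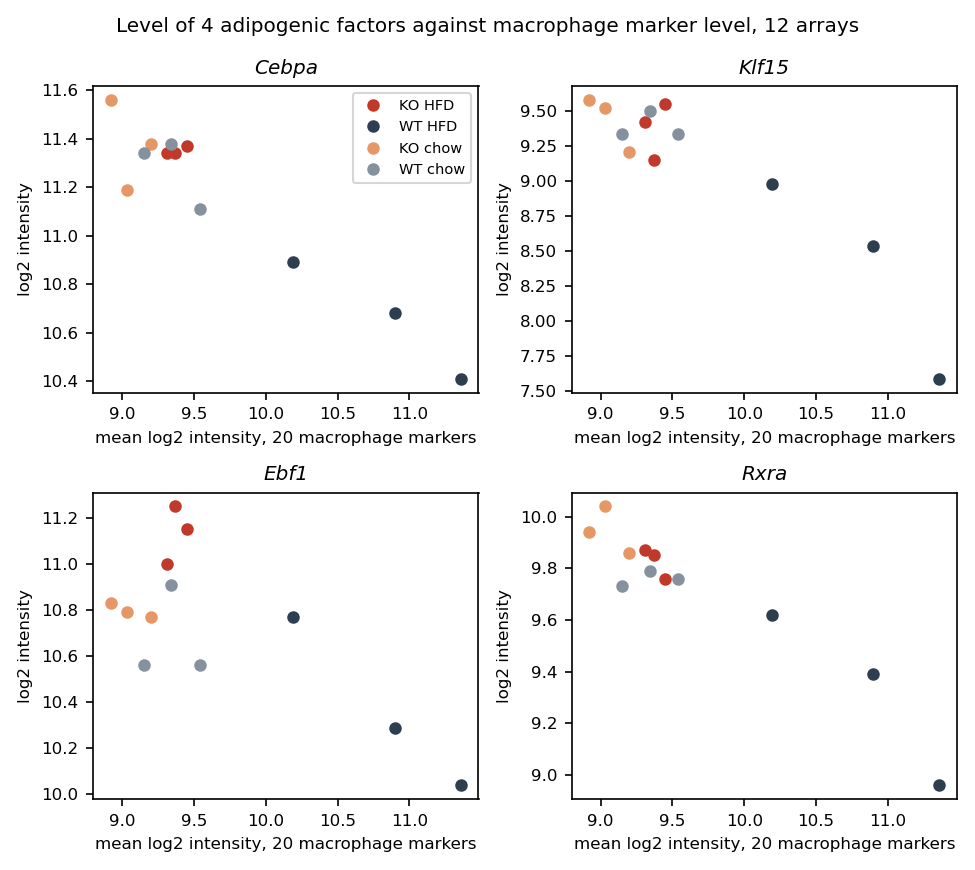
Log2 intensity of Cebpa, Klf15, Ebf1 and Rxra (vertical) against the mean log2 intensity of 20 macrophage markers on the same array (horizontal), 1 point per array; axes do not start at 0. The 3 WT arrays on HFD stand apart at 10.19 to 11.36 on the horizontal axis, and all 4 factors are lowest on the array with the highest macrophage signal.

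The differences on HFD were also read against the fat cell signal of each array, by subtracting the array's mean over the 6 adipocyte markers. The markers did not move alike. On HFD Slc2a4 averaged 10.46 in KO and 9.32 in WT, Plin1 13.01 and 12.48, Lipe 12.65 and 12.16, and Adipoq 13.29 and 12.86. Fabp4 averaged 13.25 and 13.12, and Cidec 13.04 and 12.97, so the size of the scaling depends on the markers chosen. This scaling, chosen after seeing the data, moved the median change of all genes to -0.44. It also raised the number of genes called in KO against WT on HFD from 2691 to 10824. Klf15 was still higher in KO against WT on HFD relative to the markers (0.55 ± 0.18, adjusted p = 0.028). Its values were -3.46, -3.16 and -3.09 on KO arrays, against -3.48, -4.20 and -3.67 on WT arrays, so that WT replicate 1 lay just below the lowest KO array. Ebf1 (0.31 ± 0.14, adjusted p = 0.073) and Cebpa (0.23 ± 0.14, 0.15) did not pass, and Rxra moved with the marker mean (0.04 ± 0.14, 0.80). Cebpb fell by 0.66 ± 0.19 (adjusted p = 0.018) relative to the markers, with values of -4.24, -3.73 and -4.15 on KO arrays, against -3.70, -3.14 and -3.29 on WT arrays. That change lay near the shifted median of all genes, and on the deposited scale the Cebpb difference of -0.20 did not pass. Pparg (-0.17 ± 0.16), Stat5a (-0.22 ± 0.15), Zfp423 (-0.25 ± 0.14) and Cebpd (-0.09 ± 0.22) turned negative and did not pass. The scaling lowers the change of every gene by the same amount, so that each factor keeps its distance to the median gene.

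**Figure D4:**
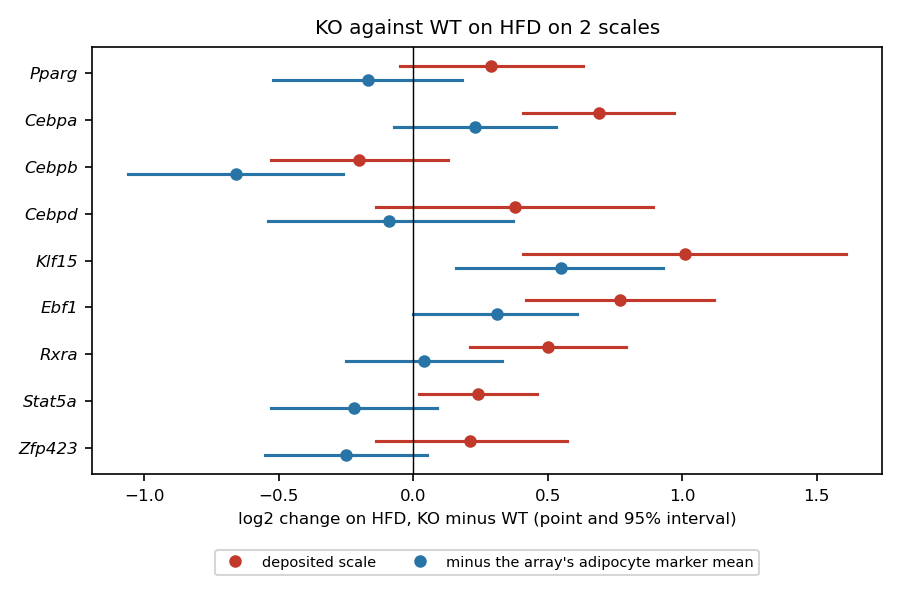
Change of each factor in KO against WT on HFD on the deposited scale (red) and after subtracting each array's mean over 6 adipocyte markers (blue), as points with 95% intervals. All blue points lie left of their red ones; among the blue intervals, those of Klf15 and Cebpb are the ones whose adjusted p was under 0.05.

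Other regulators of adipogenesis were read from further lists. Of 39 further promoters of adipogenesis 9 were higher, 2 lower and 28 did not pass in KO against WT on HFD (median 0.14). Mlxipl, the carbohydrate response factor ChREBP, rose by 0.77 ± 0.13 (adjusted p = 0.0070), the nuclear factor Nfia by 0.74 ± 0.14 (0.0097) and Srebf1, a regulator of fatty acid synthesis, by 0.70 ± 0.14 (0.011). Nr3c1, the glucocorticoid receptor, rose by 0.50 ± 0.09 (0.0088) and Ebf2, a relative of Ebf1 that marks progenitors of brown and beige fat cells, by 0.62 ± 0.13 (0.011). Arntl, the clock factor BMAL1, fell by 1.19 ± 0.19 (0.0059). It read 6.37, 6.56 and 6.35 on KO arrays, against 7.61, 7.83 and 7.41 on WT arrays. Among relatives of the members, Rxrg rose (0.55 ± 0.14, adjusted p = 0.023), while Rxrb (0.18 ± 0.07, 0.13), Stat5b (0.15 ± 0.08, 0.25), Ebf3 (0.43 ± 0.15, 0.078), Klf9 (0.42 ± 0.17, 0.14), Klf4 (0.14 ± 0.09, 0.36) and Klf5 (-0.05 ± 0.09, 0.79) did not pass; these were singled out after their values were seen.

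Of 32 measured genes known to restrain adipogenesis, 7 were higher, 1 lower and 24 did not pass in KO against WT on HFD (median 0.15). The orphan receptors Nr2f1 (0.64 ± 0.10, adjusted p = 0.0053) and Nr2f2 (0.75 ± 0.14, 0.0089), Foxc2 (0.48 ± 0.11, 0.018), the zinc finger factor Gata2 (0.37 ± 0.10, 0.033) and the ligand Wnt5a (0.38 ± 0.11, 0.044) rose, and Hif1a, the oxygen-regulated factor, fell by 0.40 ± 0.09 (0.021). Of 30 measured adipocyte genes, many of them targets of PPARγ and the C/EBP factors, 12 were higher, 1 lower and 17 did not pass (median 0.39). Among those that rose were Pck1, an enzyme of glycerol synthesis (1.68 ± 0.28, adjusted p = 0.0060), the insulin receptor substrate Irs1 (0.82 ± 0.12, 0.0044), Acaca, which makes malonyl-CoA (0.93 ± 0.22, 0.021), the droplet coat protein Plin1 (0.52 ± 0.10, 0.0091), and the triglyceride enzymes Dgat1 (0.46 ± 0.11, 0.020) and Pnpla2 (0.44 ± 0.11, 0.023). The gene that fell was Lep, which encodes leptin (-0.48 ± 0.12, 0.029).

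On chow 0 genes of these lists passed. The smallest p among the further promoters were those of Cebpg (-0.20 ± 0.08), Prdm16 (0.19 ± 0.08), Ncoa1 (-0.21 ± 0.09) and Klf4 (-0.19 ± 0.09). Among the restrainers they were those of Egr1 (-0.60 ± 0.22), Foxo1 (-0.38 ± 0.19), Hif1a (-0.17 ± 0.09) and Klf2 (-0.24 ± 0.14), and among the adipocyte genes those of Lep (-0.38 ± 0.12), Irs1 (0.34 ± 0.12), Acaca (0.49 ± 0.22) and Adipor2 (0.19 ± 0.11), all at adjusted p of 0.75 to 0.93.

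**Figure D5:**
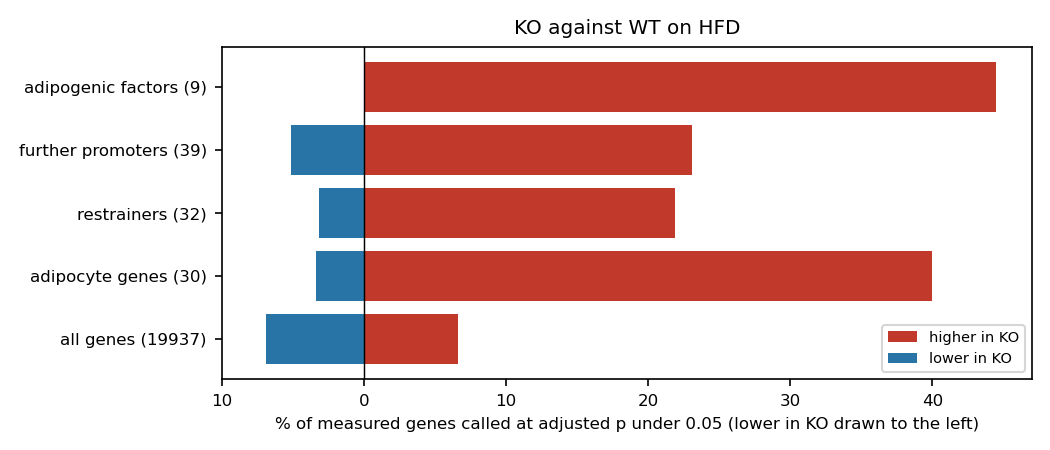
Percent of the measured genes of each list called higher (red, to the right) or lower (blue, to the left) in KO against WT on HFD. Of the 9 adipogenic factors 4 were higher and 0 lower, of the 39 further promoters 9 and 2, of the 32 restrainers 7 and 1, of the 30 adipocyte genes 12 and 1, and of all genes 6.65% and 6.85%.

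Over the 12 arrays, Klf15 and Rxra had a Pearson correlation of 0.95, Cebpa and Klf15 0.91, Cebpa and Rxra 0.89, Pparg and Klf15 0.83 and Pparg and Cebpa 0.79. Cebpb had correlations of -0.33 to 0.10 with the other 8. With each group's mean subtracted, Klf15 and Rxra had 0.90, Cebpa and Klf15 0.72, Cebpa and Rxra 0.60, Pparg and Klf15 0.69 and Pparg and Cebpa 0.67. Cebpb then had 0.02 to 0.42 with the others, highest with Klf15, and 0.37 with both Rxra and Pparg. These are descriptions over arrays that share their groups and their cell makeup, with WT HFD replicate 2 far from the rest.

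Among the genes tested, those whose values were most like those of each factor were found over the same 12 arrays. Predicted genes, receptors of smell, small RNAs and all symbols that begin with Rn were passed over. For Klf15 they were Nrg4, a secreted growth factor of fat (r = 0.987), Vegfb, a vascular growth factor (0.980), and Eci3, an enzyme of fatty acid oxidation (0.979). For Rxra they were Ecsit (0.984), Gcdh (0.976) and Fahd2a (0.975), and for Cebpa Chst1 (0.975), Ginm1 (0.975) and Ctdspl (0.966). Ebf1 was nearest to Tom1l2 (0.969), Cped1 (0.968) and Fv1 (0.964), and Stat5a to Nat8l (0.978), the mitochondrial pyruvate carrier Mpc1 (0.967) and Acaca (0.963). Zfp423 was nearest to the endothelial genes Flt1 (0.948) and Ptprb (0.947) and to Oxsm (0.943). Pparg was nearest to Csl (0.946), Metap1 (0.931) and Hdgfl3 (0.920), Cebpb to Pde6b (0.905), Nxph3 (0.856) and Gpr17 (0.845), and Cebpd to Dctn3 (0.906), Arrdc3 (0.902) and Gdap10 (0.902). Arrdc3 shared the chow pattern of Cebpd, with -1.22 in KO against WT on chow and 0.86 on HFD. These likenesses are descriptions and say nothing of shared control.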

How the data were processed

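White adipose tissue RNA was measured on 12 Affymetrix whole-transcript arrays of 1 colour. The authors deposited 1 value table of 34760 rows on a log2 scale, running from 2.09 to 14.25. The base was inferred from that range. The tool is affy, per the submitters' processing notes. Not given in the sources used here: how background was corrected and how probes were summarized and normalized. Medians of the arrays run from 5.78 to 5.92. No detection calls come with the values.

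Groups came from the sample titles. Rows were named through the platform annotation: 21640 rows carry 1 symbol, 1321 several and 11799 none. The row with the highest mean stood for each gene, which left 19937 genes, of which 19855 matched RefSeq (GRCm38.p6) by Entrez identifier. Each of the 9 members is read by 1 row, so no choice of row was needed and the alternative on rows was not run.

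The 4 group means were fitted together with limma 3.58.1 (lmFit and eBayes; R 4.3.3), with 8 residual degrees of freedom. Tests were two-sided, with Benjamini-Hochberg adjustment over all 19937 genes and a threshold of 0.05. A change is a log2 difference of group means ± its standard error (SE). The fit was tested on simulated data with independent noise and, for each gene, the same spread in all groups. That test cannot check calls for genes whose spread differs between groups. The number of arrays limits the precision. The alternatives were leaving out each array, fitting only the compared groups, a replicate block, quantile normalization, only the brighter genes, all rows, a variance trend, array weights and, added after seeing the data, a scaling to adipocyte markers.

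The members, gene lists and motifs were chosen with earlier results of these data known. The members and Ahnak are always named. From each further list up to 6 genes with the smallest p for KO against WT on HFD and up to 4 on chow are named. For each member the 3 genes with the highest correlation over the arrays are named, passing over predicted genes, receptors of smell, small RNAs and all symbols that begin with Rn. Further names (relatives of the members, Ucp1, Zic1, Cox7a1, Adam7, Lep on HFD and the macrophage markers that did not pass) were chosen after their values were seen. Promoter windows, from RefSeq, were found for 8 of the 9 members.

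The labels give the groups the same replicate numbers, but the deviations of same-numbered arrays from their group means correlated at -0.41 to 0.38, with only 4 of 18 pairs above 0.1, so the numbers were not taken to pair the arrays.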

Additional observations from a re-analysis of the deposited data

How the results depend on the processing

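For KO against WT on HFD 4 factors were called, and 1 to 4 when single arrays were left out. The count was 0 in a fit of the compared groups alone, 2 with all rows of the table and 2, 1 higher and 1 lower, relative to the adipocyte markers. It was 5 with array weights, where Stat5a was also called. Over all genes the count was 2691, and 904 to 3930 without single arrays, 4 with the compared groups alone, 4655 with array weights and 10824 relative to the adipocyte markers. For HFD against chow in WT the 5 called factors became 3 to 6 without single arrays, 2 with only the compared groups and 3 relative to the adipocyte markers, 2 lower (Cebpd and Klf15) and 1 higher (Cebpb, not among the 5), a scaling under which Stat5a reversed (0.02, no call). Over all genes this count was 4802, and 3072 to 5285 without single arrays, 3372 with only the compared groups and 9414 relative to the adipocyte markers. For the interaction the count of 0 became 0 to 4 without single arrays and 2 with array weights; over all genes it was 1, but 2060 without WT HFD replicate 1 and 1378 with array weights. The 2 other counts, KO against WT on chow and HFD against chow in KO, were 0 in every setting run. Over all genes the first was 0 to 1, and the second ran from 62 without KO HFD replicate 3 to 1964 with array weights. With the replicate number as a block (replicate block) the counts were 4, 0, 5, 0 and 0, as without it, and 2 of 12 arrays correlated best with an array of their own number. Over all settings, 842 of 886 recomputed changes kept direction and side of the threshold or had no call, 32 lost and 11 gained a call, and 1 reversed. Most of the 886 had no call in the main fit and so none to lose. Only the 4 factors called for KO against WT on HFD and the 5 for HFD against chow in WT could lose one, so the total overstates how stable the calls are. The cause was not tested where fewer arrays or more rows do not show it. Without detection calls, how far the dim Cebpd row lies above background is unknown.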
